A study of Mus musculus with 10 samples.

Results

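The first week on a high-fat, high-cholesterol diet was examined in the livers of female mice of the inbred lines C57BL/6J, called B6 here, and DBA/2J, called D2. The arrays at issue are the week 1 array and the week 0 array of each strain, 4 of the 10 arrays of the series, and each week 1 array was set against the week 0 array of its own strain. Week 0 mice had not yet been fed the diet, week 1 mice had been on it for 1 week, and the other 6 arrays hold B6 and D2 livers at 4, 12 and 21 weeks. Each array was hybridised with equal parts of the liver RNA of 5 mice, so a pool is 1 sample and the animals' own spread is averaged away. With 1 pool per strain and week, the p-values below measure neither the spread between animals nor that between pools of a condition. They draw on how far arrays of the strains and weeks depart from the fitted model. No genotype other than the strain and no agent other than the diet is labelled, and the week 0 livers are the only unfed controls. The age of the mice, the hour of collection and the feeding state at collection are not given in the sources used here, and age rises with weeks on the diet, so none of these can be told apart from the diet.

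The liver makes cholesterol by a long enzyme chain that starts with acetyl-CoA and passes through mevalonate, squalene and lanosterol. When the membranes of the endoplasmic reticulum hold enough sterol, the factor SREBP-2 is retained there and the genes of that chain are transcribed less. Cholesterol leaves the hepatocyte through bile acid synthesis and through transporters that respond to the oxysterol receptor LXR. Liver also runs a strong daily clock, and many of its lipid genes follow the time of day and of feeding. Hepatocytes are mostly quiescent but can re-enter the cell cycle, and the resident macrophages of the liver are the Kupffer cells.

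Levels are log2 values of the normalised array signal, on which a difference of 1 is a 2-fold difference, and a change is the week 1 level minus the week 0 level. Across 11061 genes, the change in B6 and the change in D2, which share no array, had a Pearson r of 0.293 and a Spearman rho of 0.265 as a description across genes, which are not independent replicates. The changes had the same sign for 59.3% of the genes, 31.7% being higher and 27.6% lower in both strains. Counts of list members below are to be read beside these shares. By limma with strain as a term, no gene passed at an adjusted p of 0.05 (0% in each direction), the lowest adjusted p was 0.0588, and 1385 genes had an unadjusted p under 0.05, 741 higher (6.7%) and 644 lower (5.82%) at week 1. That fit takes its spread from how far the strains' weekly changes differ over all 10 arrays. A fit to the 4 arrays alone, which leaves 1 residual degree of freedom, passed 105 genes, 42 higher (0.38%) and 63 lower (0.57%). Its spread draws on the difference between the strains' changes, so that fit favours genes whose strains changed alike. All 105 went the same way in both strains. Some genes that pass in that fit are named as such below, but a gene not so named may have passed too. Among these are Cyp8b1, Fos, Nr4a1, Aldoc, Atp6v0d2, Gm6958, Nlrp12 and Ifi27l2b. No member described passed in the fit to all 10 arrays. Leaving out either week 4 array passed 17 genes, the deposited scale passed 207 (199 higher and 8 lower), and centring the arrays on the median of the genes kept passed 21 (4 higher and 17 lower). Of the genes described, 19 had a level under 3.74, the filter on mean signals, on at least 1 of the 4 arrays, and the size of a change from or to such a level is uncertain. Where a change is given without 1 of the 4 arrays, the strain term of the fit stands in for that array. That term rests on the later weeks too, so such a value is not the change of the remaining strain. The median change over all genes was 0.02 after normalisation between the arrays and 0.52 on the deposited scale. The liver markers Alb, Apoa1 and Ttr lay between 12.51 and 13.16 on all 4 arrays. Of other cell types' defining markers, Cd3e of T cells, Hba-a1 of red cells and Krt7 and Krt19 of bile ducts had mean signals under the filter. That mean is over all 10 arrays, and on these 4 arrays Krt19 lay between 3.78 and 4.26, above the filter. Kept were Adgre1, Clec4f and Cd68 of macrophages, Lrat, Des and Col1a1 of stellate cells and Stab2, Pecam1 and Lyve1 of endothelium. Ptprc, S100a8 and Epcam were kept too.

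**Figure D1:**
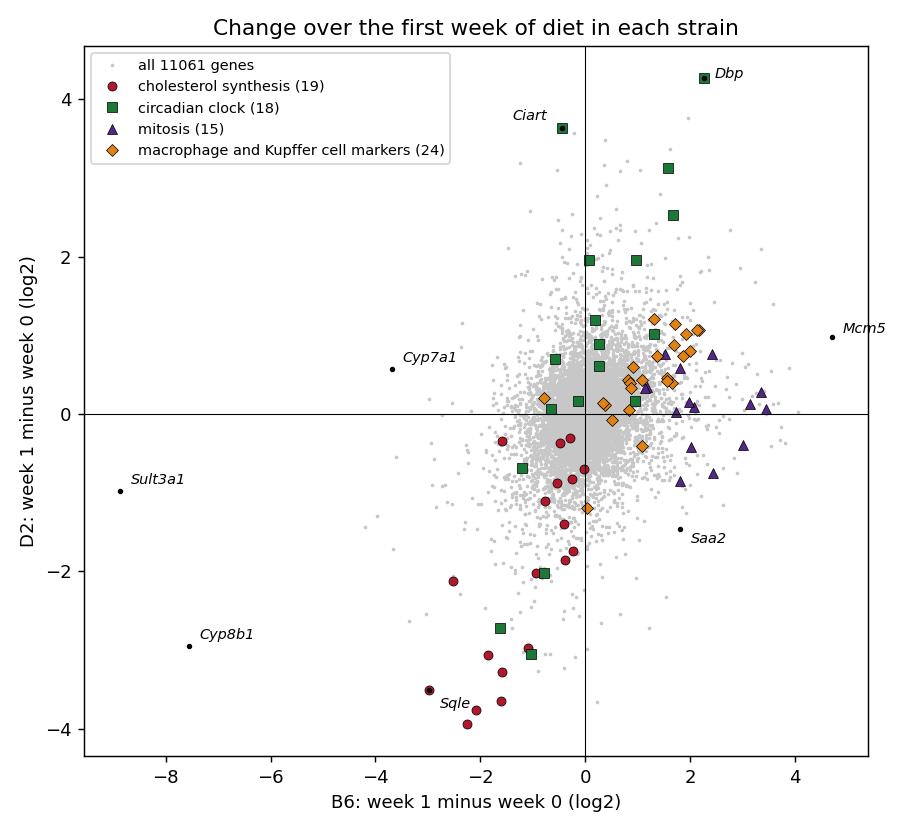
Change over the first week (week 1 minus week 0, log2) in B6 on the horizontal axis and in D2 on the vertical axis, with 1 grey point for each of 11061 genes and coloured symbols for 4 gene lists. The 19 cholesterol synthesis genes all lie in the lower left, the 15 mitosis genes lie far to the right with D2 changes from -0.86 to 0.77, and Cyp7a1, Ciart and Saa2 lie in quadrants of opposite sign.

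The genes of cholesterol synthesis were lower at week 1 in both strains. All 19 measured members were lower in B6 and in D2, against 27.6% of all genes, and their median change was -1.12, -0.94 in B6 and -1.86 in D2 (over both strains -1.88 without the B6 week 1 array). In 15 of the 19 both week 1 arrays lay below both week 0 arrays (18.2% of all genes), and 8 were at least 2-fold lower in both strains (0.841% of all genes). The summed signal of the 19 genes went in B6 from 10061 to 5174 and in D2 from 11248 to 3467. In the fit to the 4 arrays 9 members passed, all lower, among them Sqle, Cyp51, Idi1 and Tm7sf2. These 4 were also among the 10 genes with the largest shared decreases of the whole table.

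The promoters of some of these genes are shown because the members moved together. Sequences are from RefSeq on the mouse build GRCm38.p6, in the direction of transcription, and capitals mark matches on either strand to CCAAT, which binds NF-Y, a partner of SREBP, or to TCACNCCAC, a sterol regulatory element (SRE). Hmgcs1 lies at chr13:119690158-119690277 on the plus strand, Idi1 at chr13:8885486-8885605 on the plus strand, Cyp51 at chr5:4104698-4104817 on the minus strand and Tm7sf2 at chr19:6067851-6067970 on the minus strand, all upstream of the gene's start.
Hmgcs1: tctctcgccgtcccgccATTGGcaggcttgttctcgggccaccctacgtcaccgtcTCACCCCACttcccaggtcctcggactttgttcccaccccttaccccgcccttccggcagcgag
Idi1: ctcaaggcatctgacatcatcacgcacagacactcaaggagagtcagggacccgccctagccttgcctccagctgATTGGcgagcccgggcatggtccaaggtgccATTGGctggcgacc
Cyp51: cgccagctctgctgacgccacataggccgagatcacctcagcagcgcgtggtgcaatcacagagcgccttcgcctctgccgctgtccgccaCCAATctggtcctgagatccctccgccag
Tm7sf2: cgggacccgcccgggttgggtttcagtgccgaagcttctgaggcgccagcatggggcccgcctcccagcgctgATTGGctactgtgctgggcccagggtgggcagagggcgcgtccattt
CCAAT was found in 14 of the 15 sterol gene promoters in the RefSeq table (93.3%), against 34.5% of all 27025 promoters of the same length and 36% of the 8999 of genes kept. Other lists held it too, in 13 of 14 mitosis (92.9%), 11 of 16 clock (68.8%) and 12 of 20 replication gene promoters (60%). The SRE letters were found in 1 of the 15 (6.67%), Hmgcs1, against 1.04% of all promoters and 0.989% of those of genes kept. A match is a description of the letters in the bases searched.

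The early, mevalonate part of the chain was lower by an amount that varied between members. Hmgcs1, which makes HMG-CoA, was at 10.63 in B6 and 10.40 in D2 at week 0 and at 9.68 and 8.38 at week 1. Its mean change was -1.48 ± 0.64, where ± here and below is the SE of the limma fit to all 10 arrays. Both of its week 1 arrays lay below both week 0 arrays. Idi1, the isopentenyl diphosphate isomerase, was at 8.82 and 9.23 at week 0 and at 6.75 and 5.48 at week 1. Fdps, which makes farnesyl diphosphate, was at 9.31 and 10.02 at week 0 and at 7.70 and 6.37 at week 1. For both, the decrease was larger in D2 (-3.76 and -3.65) than in B6 (-2.07 and -1.61), and the strain difference of the change did not pass (adjusted p = 0.986 and 0.983). The kinases Mvk and Pmvk and the decarboxylase Mvd, which act between HMG-CoA and the isoprenoids, had mean changes of -0.70, -1.12 and -0.94. Without the D2 week 1 array both Pmvk and Mvd were at -0.37.

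The late part, from squalene to cholesterol, held the largest mean decrease of the list, that of Sqle. Sqle (squalene epoxidase, probe set 1415993_at) was at 7.97 in B6 and 8.09 in D2 at week 0 and lower by 2.98 and 3.51 at week 1. Its mean change was -3.24 ± 1.04 (SE of the limma fit to all 10 arrays, adjusted p = 0.289). Over 25 alternative settings of the processing the adjusted p of limma ran from 0.00186 to 0.574. Cyp51, the lanosterol demethylase, was at 8.53 and 8.74 at week 0 and at 6.28 and 4.80 at week 1. Tm7sf2, a sterol reductase, was at 10.13 in both strains at week 0 and at 7.61 and 8.02 at week 1, a mean change of -2.31 ± 0.34 (adjusted p = 0.074, from 0.002 to 0.406 over the alternatives). In each of these genes the groups did not overlap. The mean change was -2.45 for Msmo1, a methylsterol oxidase, -2.43 for Nsdhl, a sterol dehydrogenase, and -2.03 for Dhcr7, which catalyses a last step. For Dhcr7 the B6 value was -1.08 and the D2 value -2.98. The change of Sc5d was -0.23 in B6 and -1.74 in D2, while that of Hsd17b7 was -1.58 in B6 and -0.35 in D2. Lss, which closes the sterol rings, had a mean change of -0.90 (-0.25 without the D2 week 1 array). Ebp, Fdft1, Ggps1 and Stard4 had the smallest changes, from -0.54 to -0.29, and on the deposited scale the changes of Fdft1 and Ggps1 were 0.12 and 0.26. Without the D2 week 1 array those of Fdft1 and Stard4 were 0.094 and 0.037, and the median of the list was -0.86.

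**Figure D2:**
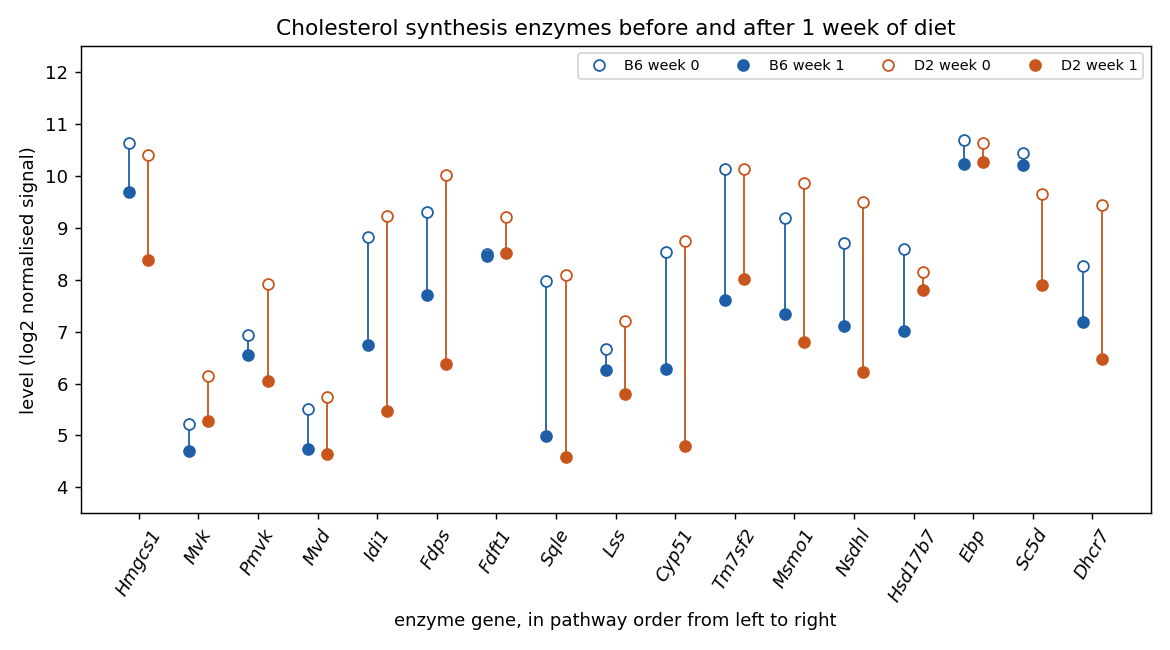
Level (log2 normalised signal) of 17 cholesterol synthesis enzymes in pathway order, with open circles for week 0, filled circles for week 1, blue for B6 and orange for D2, 1 array each. Every filled circle lies below its open circle, from Cyp51 in D2, which differed by -3.94, to Fdft1 in B6, where the difference was -0.03.

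Genes that sense sterol moved less as a group. Of 9 measured, 5 were lower and 2 higher in both strains (27.6% and 31.7% of all genes). Their median change was -0.24 (0.30 on the deposited scale and 0.15 without the B6 week 1 array). Insig1, which retains the SREBP complex in the endoplasmic reticulum, was at 8.94 and 8.70 in B6 and at 9.19 and 7.64 in D2. Insig2, its paralogue, was at 11.52 and 11.36 at week 0 and at 10.60 and 10.64 at week 1, both week 1 arrays lying below both week 0 arrays, and it passed in the fit to the 4 arrays. Srebf2, which encodes SREBP-2 itself, had a mean change of -0.71 ± 0.29.

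Targets of LXR, the receptor that answers to oxysterols, stood higher, with the larger median in B6, a strain difference that was not tested for the list. Of 12 genes 8 were higher in both strains, against 31.7% of all genes, and the median change was 0.60, 0.80 in B6 and 0.33 in D2 (over both strains 0.20 without the B6 week 0 array). Abcg5, one part of the heterodimer that pumps cholesterol into bile, was at 9.01 in B6 and 8.77 in D2 at week 0 and at 10.75 and 9.57 at week 1. Its partner Abcg8 was at 8.40 and 8.64 at week 0 and at 9.56 and 8.96 at week 1. For both genes the lower week 1 level, that of D2, was above the higher week 0 level, and Abcg5 passed in the fit to the 4 arrays. Abca1, which loads cholesterol onto apolipoprotein A-I, was higher by 0.88 in B6 and 0.54 in D2. Srebf1, an LXR target that drives fatty acid synthesis, went in B6 from 8.02 to 10.73 and in D2 from 9.23 to 9.70. Lpl, a lipase that is low in adult hepatocytes and is made by macrophages too, was higher by 1.63 in B6 and by 0.16 in D2 (change of -0.12 without the B6 week 0 array).

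Fatty acid synthesis did not move one way. Of 20 genes 6 were higher and 5 lower in both strains (31.7% and 27.6% of all genes). The median was 0.36 in B6 and -0.16 in D2. Scd1, the main stearoyl-CoA desaturase of liver, was at 12.26 in B6 and 11.22 in D2 at week 0 and at 12.78 and 12.53 at week 1, and its relative Scd2 was higher by 1.33 and 1.32. Both Scd2 week 1 levels (6.66 and 5.95) were above both week 0 levels (5.32 and 4.63). Fasn, the fatty acid synthase, went in B6 from 8.81 to 10.50 and in D2 from 8.73 to 8.06. Its strain difference of -2.36 did not pass (adjusted p = 0.879). Elovl6, an elongase of saturated chains, was higher by 2.29 in B6 and by 0.22 in D2, and Pnpla3, a lipid droplet enzyme, was at 5.09 in B6 at week 1 against a week 0 level of 2.06, which lay under the filter, and was higher by 0.05 in D2. Elovl3, an elongase with a strong daily rhythm, was lower by 1.80 and 1.74, and Acacb, the acetyl-CoA carboxylase of the mitochondrial surface, by 1.60 and 1.13. Scd2, Elovl3 and Acacb passed in the fit to the 4 arrays.

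The sterol 12-alpha-hydroxylase of bile acid synthesis was the gene with the largest mean decrease of all 11061. Cyp8b1 (probe set 1449309_at), which sets how much cholic acid is made, was at 10.92 in B6 and 11.17 in D2 at week 0 and at 3.36 and 8.22 at week 1. Both week 1 arrays lay below both week 0 arrays, and the B6 week 1 level lay under the 3.74 that served as filter on mean signals. Its mean change was -5.25 ± 1.06 (adjusted p = 0.133, from 0.0257 to 0.577 over the alternatives). Cyp7a1 (probe set 1438743_at), whose hydroxylase starts and limits bile acid synthesis, was at 9.67 and 5.98 in B6 and at 9.14 and 9.71 in D2, so the strains went opposite ways. The strain difference of its change was 4.26 and did not pass (adjusted p = 0.869). Nr0b2, the repressor SHP that answers to bile acids, went the opposite way to Cyp7a1 in each strain, at 7.74 and 9.58 in B6 and at 9.54 and 9.24 in D2. Cyp39a1, an oxysterol hydroxylase, was lower by 1.36 in B6 and 0.51 in D2, Akr1d1, a steroid reductase, by 0.47 and 1.19, and Cyp27a1, which opens the acidic pathway, by 0.73 and 0.43. Of all 19 genes of the list 5 were higher and 8 lower in both strains (31.7% and 27.6% of all genes). The median was -0.16 (0.21 on the deposited scale). Among 11 carriers of bile acids and organic anions, Slco1a1, an uptake carrier, was lower by 1.84 and 0.99 and passed in the fit to the 4 arrays (change of 0.020 without the B6 week 0 array), and Abcb11, the bile salt export pump, was at 10.26 and 11.16 in B6 and at 10.78 and 10.61 in D2.

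Clock genes held the largest increase of the table. Dbp (probe set 1438211_s_at), a transcription factor whose level swings widely over the day, was at 5.58 in B6 and 5.97 in D2 at week 0 and at 7.84 and 10.24 at week 1. The groups did not overlap, and the mean change was 3.27 ± 0.44 (SE of the limma fit to all 10 arrays). Its adjusted p in that fit was 0.0718, from 0.00821 to 0.406 over the alternatives. Per3, a period gene, was at 4.37 and 4.46 at week 0 and at 5.95 and 7.59 at week 1. Nr1d1 (REV-ERB-alpha), the repressor of Arntl, was at 3.02 and 4.34 at week 0 and at 4.69 and 6.88 at week 1. Both week 1 arrays were above both week 0 arrays for each. Per2 was higher by 1.32 and 1.02 and Nr1d2, the paralogue of Nr1d1, by 0.97 and 1.95. Arntl (BMAL1), the activator of the loop, went the other way, in B6 from 7.19 to 5.57 and in D2 from 6.94 to 4.22. Cry1 was lower by 1.03 and 3.04, Nfil3 by 0.79 and 2.02 and Clock by 1.21 and 0.69. Dbp, Per3, Nr1d1, Nr1d2 and Per2 passed as higher and Arntl as lower in the fit to the 4 arrays.

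Of the 18 clock genes 10 were higher and 4 lower in both strains, against 31.7% and 27.6% of all genes. Ciart, a repressor of the loop, was at 4.66 and 4.23 in B6 and at 3.10 and 6.75 in D2. Usp2, a rhythmic ubiquitin protease, was at 8.69 and 8.77 in B6 and at 7.43 and 9.39 in D2. The median over the list was 0.13 in B6 and 0.80 in D2 (over both strains 0.24 without the D2 week 1 array), and no clock gene passed for a strain difference, the lowest adjusted p being 0.869 for Dbp and Nfil3. As background, Dbp and Arntl peak at different hours of the day. The hour of collection cannot be told apart from the week. Of the other weekly arrays, the D2 ones at weeks 4, 12 and 21 had Dbp at 10.10, 10.53 and 10.33, and the B6 ones at 9.64, 9.94 and 8.94.

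The promoters of Per3 and Ciart are shown for the letters through which the clock proteins act. They lie at chr4:151044784-151044903 on the minus strand (Per3) and at chr3:95882246-95882365 on the minus strand (Ciart) of GRCm38.p6, from RefSeq. Capitals mark matches, on either strand, to TTANGTAA, a D-box bound by Dbp and Nfil3, in Per3 and to CACGTG, an E-box bound by CLOCK and BMAL1, in Ciart.
Per3: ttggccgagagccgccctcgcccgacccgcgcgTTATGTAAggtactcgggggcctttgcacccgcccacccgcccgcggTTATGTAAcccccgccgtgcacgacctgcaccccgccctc
Ciart: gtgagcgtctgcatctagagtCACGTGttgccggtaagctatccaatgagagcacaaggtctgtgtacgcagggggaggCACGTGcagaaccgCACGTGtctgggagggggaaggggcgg
The E-box letters were found in 4 of 16 clock gene promoters (25%) against 6.05% of all 27025 and 8.69% of those of genes kept, and the D-box letters in 1 of 16 (6.25%) against 2.11% and 1.34%.

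Immediate early genes, which answer within minutes to growth signals or handling of the tissue, were also among the 10 largest shared increases. Fos was at 5.30 in B6 and 4.65 in D2 at week 0 and at 7.48 and 6.46 at week 1. Nr4a1, an orphan nuclear receptor, was at 5.61 and 5.68 at week 0 and at 7.42 and 7.32 at week 1. In both genes the week 1 arrays lay above the week 0 arrays. The mean changes were 1.99 ± 0.80 and 1.73 ± 0.48 (SE of the limma fit to all 10 arrays). Atf3, a stress-induced factor, was higher by 1.84 and 1.23.

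Some genes that insulin represses and fasting induces were lower, while the share of the list that was lower in both strains lay near that of all genes. Pdk4 (probe set 1417273_at), the kinase that shuts pyruvate dehydrogenase in fasting, was at 9.42 in B6 and 8.72 in D2 at week 0 and at 6.38 and 6.18 at week 1. Neither week 1 array reached a week 0 level, and the mean change was -2.79 ± 0.49 (adjusted p = 0.104, from 0.00186 to 0.337 over the alternatives). Igfbp1, an insulin-repressed secreted protein, was at 11.96 and 11.70 at week 0 and at 10.73 and 10.50 at week 1. Irs2, a substrate of the insulin receptor that insulin itself represses, was at 7.08 and 7.40 at week 0 and at 6.03 and 5.88 at week 1. These 3 genes passed in the fit to the 4 arrays. Ppargc1a, the coactivator of gluconeogenesis, was lower by 1.20 in B6 and 0.31 in D2, while Pck1, the rate-limiting enzyme of gluconeogenesis, was at 12.04 and 11.96 in B6 and at 12.07 and 12.20 in D2. Of the 16 genes of this list 2 were higher and 5 lower in both strains, against 31.7% and 27.6% of all genes, with medians of -0.34 in B6 and 0.11 in D2. Over both strains the median was -0.18, 0.19 on the deposited scale and 0.063 without the B6 week 1 array.

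Fatty acid oxidation genes under PPAR-alpha lay lower at week 1 in B6, by the median, and slightly higher in D2, a difference between the strains that was not tested for the list. Of 26 genes, 4 were higher and 9 lower in both strains (31.7% and 27.6% of all genes). The median change was -0.51 in B6 and 0.16 in D2. Over both strains it was -0.15, with 0.21 on the deposited scale and 0.081 without the B6 week 0 array. Angptl4, a secreted lipase inhibitor, was at 10.61 and 9.16 in B6 and at 10.40 and 9.84 in D2. Fgf21, the fasting hormone of liver, was at 6.29 and 4.75 in B6 and at 7.32 and 7.07 in D2. Vnn1 was lower by 1.12 in B6 and 0.28 in D2. Cpt1a, which admits fatty acids to mitochondria, was at 10.67 and 9.99 in B6 and at 10.53 and 11.08 in D2, a strain difference of 1.23 that did not pass (adjusted p = 0.869). Acot1, an acyl-CoA thioesterase, had changes of -1.61 in B6 and 0.26 in D2.

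Of 17 triglyceride and lipid droplet genes 9 were lower and 1 higher in both strains (27.6% and 31.7% of all genes). The median was -0.33 (-0.13 without the B6 week 1 array). Lpin1, a phosphatidate phosphatase, was at 11.17 in B6 and 8.81 in D2 at week 0 and at 9.02 and 7.74 at week 1. The B6 week 1 level thus lay above the D2 week 0 level although each strain was lower at week 1. G0s2, an inhibitor of the lipase ATGL, was at 10.64 and 10.38 at week 0 and at 8.65 and 9.23 at week 1, and its groups did not overlap. Both passed in the fit to the 4 arrays. The droplet protein Plin5 was lower by 1.41 in B6 and 0.28 in D2, Fitm2 by 1.35 and 0.39, and Fitm1 by 0.41 in B6 and 3.23 in D2. Plin4 was at 7.34 and 4.97 in B6 and at 6.10 and 6.96 in D2.

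**Figure D3:**
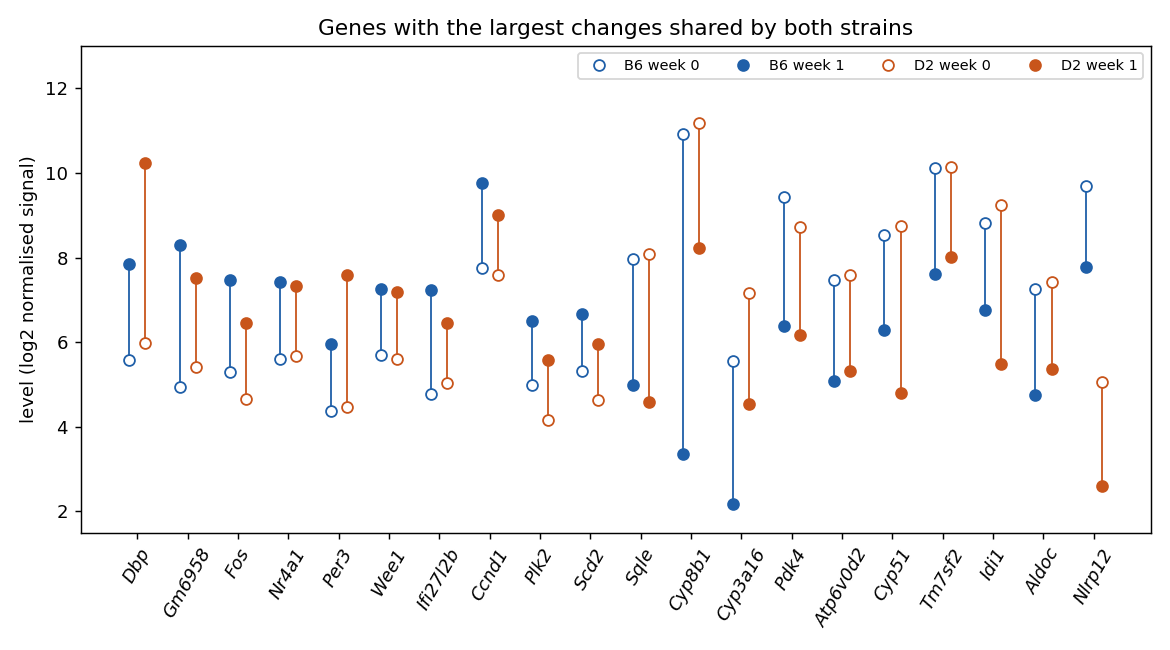
Level (log2 normalised signal) of the 10 genes with the largest increases and the 10 with the largest decreases shared by both strains, ranked by the smaller of the strains' changes, with open circles for week 0, filled circles for week 1, blue for B6 and orange for D2, 1 array each. Filled circles lie above open ones for Dbp to Scd2 and below them for Sqle to Nlrp12, and Cyp8b1 in B6, from 10.92 to 3.36, spans the longest line.

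Cell cycle genes were far higher at week 1 than at week 0 in B6 and lay near their week 0 levels in D2. Of 22 DNA replication genes 20 were at least 2-fold higher in B6 (5.61% of all genes) and 2 in D2 (3.08% of all genes), and their median change was 1.90 in B6 and 0.20 in D2. Of 15 mitosis genes all were at least 2-fold higher in B6 and none was in D2, with medians of 2.02 and 0.13. Another 5 replication and 12 mitosis genes were measured but lay under the filter, which a high B6 week 1 level helps a gene to pass. Without the filter 23 of 27 replication and 24 of 27 mitosis genes were at least 2-fold higher in B6 (10.7% of all genes) and 3 and 2 were in D2 (8.89% of all genes), with medians of 1.91 and 1.99 in B6 and 0.20 and 0.066 in D2. The summed signal of the replication genes went in B6 from 1150 to 4080 and in D2 from 1418 to 1751, and that of the mitosis genes from 264 to 1310 and from 362 to 385. No member passed in either fit or for the strain difference, of which the lowest adjusted p in both lists was 0.858. Without the B6 week 1 array the median changes of the kept members of the lists were 0.33 and 0.41, and without the D2 week 1 array 1.82 and 1.73. In bulk tissue more cells in cycle and more of these transcripts per cell cannot be told apart. Macrophage genes, described further on, were higher on the same B6 array, and their part in this result was not tested.

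Mcm5, a subunit of the replicative helicase, was at 3.38 and 8.10 in B6 and at 4.10 and 5.09 in D2. The B6 week 1 array stood above the other 3. Mcm6, of the same helicase, was at 4.64 and 8.36 in B6 and at 4.96 and 4.63 in D2. Mcm3 was at 3.75 and 7.14 in B6 and at 3.91 and 4.21 in D2, and Cdt1, which loads the helicase, at 4.57 and 7.37 in B6 and at 5.85 and 6.49 in D2. Pola2, a subunit of the primase complex, was higher in both strains, by 2.22 and 1.82. It was at 3.20 and 5.42 in B6 and at 2.17 and 3.99 in D2, with both week 0 levels under the filter of 3.74. The promoters of Mcm5 (chr8:75109302-75109421, plus strand) and Mcm6 (chr1:128359721-128359840, minus strand) are shown, from RefSeq on GRCm38.p6, because these genes had large B6 changes and their family is a known target of E2F, and capitals mark matches on either strand to TTTNNCGC, where matches of opposite strand overlap.
Mcm5: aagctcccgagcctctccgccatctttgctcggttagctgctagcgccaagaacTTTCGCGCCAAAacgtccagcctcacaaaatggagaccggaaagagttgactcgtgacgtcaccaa
Mcm6: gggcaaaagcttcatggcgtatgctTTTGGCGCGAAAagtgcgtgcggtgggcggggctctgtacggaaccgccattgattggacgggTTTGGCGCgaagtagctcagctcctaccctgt
These E2F letters were found in 5 of 20 replication gene promoters (25%) and 2 of 14 mitosis gene promoters (14.3%), against 4.39% of all 27025 and 7.4% of those of genes kept.

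Among mitosis genes, Mki67, the proliferation marker Ki-67, was at 3.55 and 6.55 in B6 and at 4.97 and 4.58 in D2. Cdca3, an adaptor of the mitotic ubiquitin ligase, was at 3.40 and 6.85 in B6 and at 4.79 and 4.85 in D2. Mad2l1, of the spindle checkpoint, was at 4.04 and 7.40 in B6 and at 4.84 and 5.12 in D2. In each the B6 week 1 array was the highest of the 4, and the D2 changes were -0.39, 0.07 and 0.28. Ube2c and Cdc20, which drive exit from mitosis, were higher by 3.14 and 2.42 in B6 and by 0.13 and 0.76 in D2.

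Some regulators of the cycle went the same way in both strains and others did not. Ccnd1 (cyclin D1), which takes hepatocytes through the first phase of the cycle, was at 7.75 in B6 and 7.59 in D2 at week 0 and higher by 2.00 and 1.41 at week 1, a mean change of 1.71 ± 0.28 (adjusted p = 0.0964, from 0.0107 to 0.322 over the alternatives). Wee1, a kinase that holds back mitosis and is clock-controlled in liver, was at 5.71 and 5.61 at week 0 and at 7.25 and 7.18 at week 1. In both the week 1 arrays lay above the week 0 arrays. The inhibitor Cdkn1a (p21) was at 9.59 and 9.26 at week 0 and at 8.61 and 7.21 at week 1, and Ccng2, a cyclin of quiescent cells, at 9.04 and 8.57 and then at 7.84 and 7.11. Ccnd1 and Wee1 passed as higher and Cdkn1a and Ccng2 as lower in the fit to the 4 arrays. E2f1, a transcription factor for entry into DNA synthesis, was at 3.65 and 5.55 in B6 and at 4.64 and 3.69 in D2. Of 15 growth arrest genes 5 were higher, 6 lower and 4 opposite in the strains (31.7%, 27.6% and 40.7% of all genes). The medians were 0.29 in B6 and -0.23 in D2. Gadd45a, of that list, went in B6 from 1.80 to 5.69 and in D2 from 4.01 to 4.60.

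**Figure D4:**
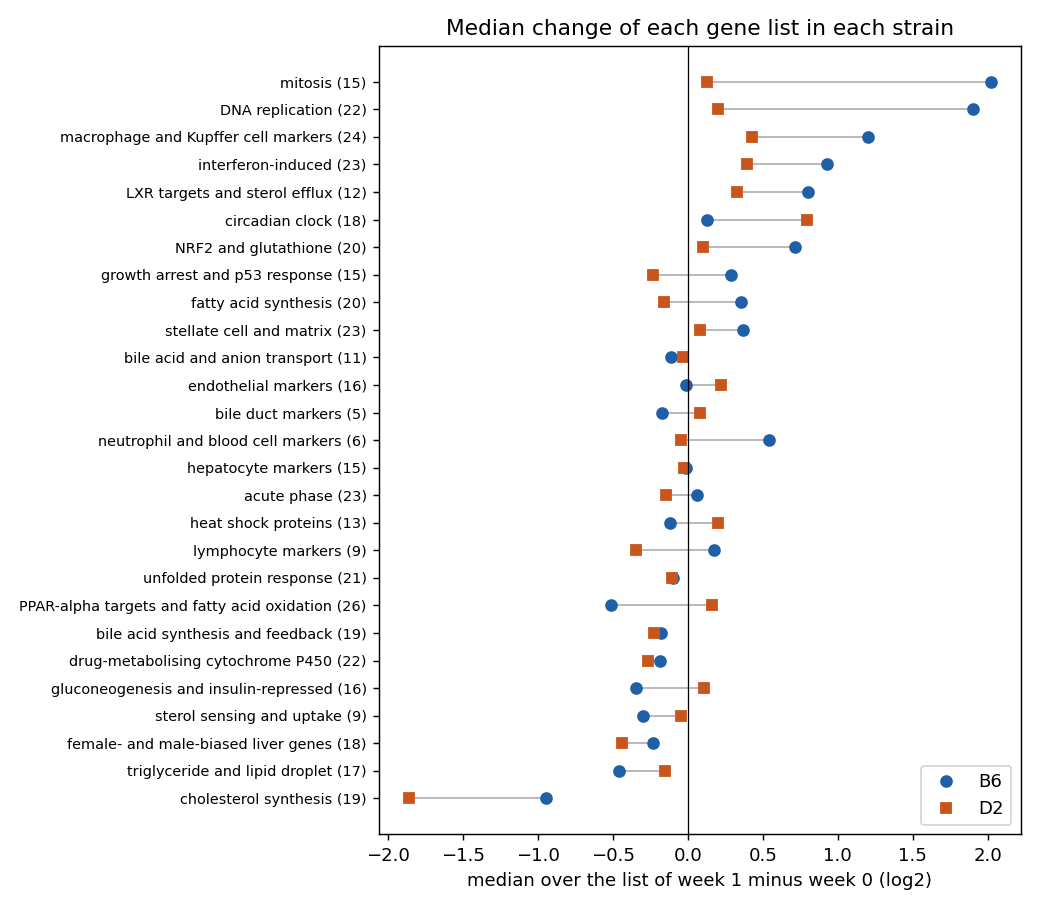
Median over each gene list of the change from week 0 to week 1 (log2), with blue circles for B6 and orange squares for D2, list sizes in brackets. Cholesterol synthesis stands lowest (-0.94 in B6 and -1.86 in D2), mitosis and DNA replication stand highest in B6 (2.02 and 1.90) with D2 near 0, and hepatocyte markers lie near 0 in both.

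Macrophage and Kupffer cell genes were higher at week 1 in both strains, with the larger median in B6, a strain difference that was not tested for the list. Of 24 genes 20 were higher in both strains (31.7% of all genes) and none was lower in both (27.6%). In 18 both week 1 arrays lay above both week 0 arrays (20.8% of all genes). The median was 1.20 in B6 and 0.43 in D2 (over both strains 0.23 without the B6 week 0 array and 1.64 without the D2 week 0 array), and the summed signal went in B6 from 4577 to 10764 and in D2 from 5312 to 7153. Cd68 (probe set 1449164_at), a lysosomal protein of macrophages, was at 5.83 in B6 and 5.22 in D2 at week 0 and at 7.14 and 6.42 at week 1. Marco, a scavenger receptor, was at 6.03 and 5.21 at week 0 and at 7.75 and 6.35 at week 1, and Cd74, the invariant chain of MHC class II, at 8.18 and 8.04 and then at 9.87 and 8.92. In each the groups did not overlap. Lgals3, galectin-3 of activated macrophages, was higher by 2.13 in B6 and 1.07 in D2, Lyz2, lysozyme, by 2.01 and 0.80, and Mmp12 by 2.17 and 1.06 (change of -0.092 without the B6 week 0 array). Cd68, Marco, Cd74 and Lgals3 passed in the fit to the 4 arrays. Clec4f, a marker of resident Kupffer cells, was higher by 0.85 and 0.40, and Timd4, another resident marker, by 1.37 and 0.74. More macrophages and more of these transcripts per cell cannot be told apart.

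Over both strains the medians of other non-hepatocyte lists lay nearer 0. Of 23 stellate cell and matrix genes 9 were higher in both strains and none lower (31.7% and 27.6% of all genes), and 14 went opposite ways (40.7%). The median was 0.14 (-0.11 without the B6 week 0 array). Col1a1, the main chain of scar collagen, was at 4.69 in B6 and 2.03 in D2 at week 0 and at 6.12 and 4.82 at week 1. Its D2 week 0 level lay under the filter of 3.74. Des was at 4.73 and 4.85 in B6 and at 5.70 and 5.04 in D2, and Lrat at 6.12 and 6.31 and at 5.29 and 5.64. Medians were 0.10 over 16 endothelial, -0.06 over 9 lymphocyte (0.48 on the deposited scale), 0.01 over 6 neutrophil and blood (-0.13 when centred on the genes kept) and 0.03 over 5 bile duct markers (-0.05 when so centred). Within B6 the neutrophil and blood median was 0.54, against -0.04 in D2. The bile duct markers did not move one way in B6. There 2 of 5 were at least 2-fold higher (5.61% of all genes), 3 were lower, 1 of them at least 2-fold, and the median was -0.17. Their summed signal was 140.3 at week 0 and 504 at week 1 in B6, while the D2 sums were 173 and 203. Prom1, the brightest of the 5 on the B6 week 1 array, stood at 8.50 there, against 4.76 on the B6 week 0 array. Hepatocyte markers had a median of -0.01 (0.11 on the deposited scale). Their summed signal differed little (83711 and 81853 in B6, 83068 and 82032 in D2). Quantile normalisation holds the brightest signals near equal between arrays, with Apoa1 at 13.16 on every array, so these values say little of hepatocyte content.

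Interferon-induced genes were higher in both strains. Of 23 genes 19 were higher in both (31.7% of all genes) and none was lower in both (27.6%). The medians were 0.93 in B6 and 0.40 in D2 (over both strains 0.29 without the B6 week 0 array and 0.99 without the D2 week 0 array). Psmb9, a subunit of the immunoproteasome, was at 5.86 in B6 and 6.46 in D2 at week 0 and at 7.31 and 7.72 at week 1, and passed in the fit to the 4 arrays. Igtp, a GTPase of the defence against intracellular parasites, was at 7.77 and 8.16 at week 0 and at 9.56 and 8.92 at week 1. Ifit2 was higher by 1.94 and 1.23. Mx1 and Gbp2 went in B6 from 2.26 to 4.58 and from 5.42 to 7.54, against changes of -0.19 and 0.13 in D2. Ifi27l2b, an interferon-inducible gene that ranked among the 10 largest shared increases, was at 4.78 and 5.04 at week 0 and at 7.24 and 6.46 at week 1. Macrophage genes were higher on the same arrays, with the summed signals given above, and their part in this result was not tested.

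Of 23 acute phase genes 13 did not go the same way in the strains, against 40.7% of all genes counted alike. Those 13 include Itih3 and Cp, whose D2 change was 0. No strain difference passed. Saa1 and Saa2, the serum amyloid A proteins, were among the 3 genes that went at least 2-fold in opposite directions with a level of at least 6. Saa2 was at 7.23 and 9.04 in B6 and at 9.88 and 8.42 in D2, and Saa1 was higher by 1.93 in B6, at 10.93 at week 1, and at 11.46 and 10.21 in D2. The D2 week 0 array thus stood highest of the 4 for Saa2 and Saa1, and the differences between the strains' changes, -3.27 and -3.19, did not pass (adjusted p = 0.973 and 0.953). Lcn2, lipocalin-2, followed the same pattern, at 8.55 and 9.27 in B6 and at 9.77 and 8.18 in D2. Saa3, of the same family, was higher in both, by 2.36 in B6 and 0.55 in D2. Over the list the median was -0.02 (0.20 on the deposited scale), and 3 were higher (31.7% of all genes) and 7 lower (27.6%) in both strains. Among the latter, the metallothioneins Mt1 and Mt2, which bind zinc, were lower by 2.26 and 2.89 in B6 and by 0.46 and 0.57 in D2.

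Genes of glutathione conjugation and the NRF2 response stood higher, with the larger median in B6, a strain difference that was not tested for the list. Of 20 genes 12 were higher in both strains and none lower (31.7% and 27.6% of all genes). The medians were 0.71 in B6 and 0.11 in D2 (over both strains 0.17 without the B6 week 1 array). Gstm3, a glutathione transferase, went in B6 from 8.84 to 12.39 and in D2 from 8.85 to 9.40. Ephx1, microsomal epoxide hydrolase, was at 10.81 and 10.67 at week 0 and at 12.00 and 11.52 at week 1, without overlap, and passed in the fit to the 4 arrays. Gsta4 was higher by 2.18 in B6 and 0.12 in D2, and Gstm2 was at 8.57 and 10.42 in B6 and at 8.40 and 7.22 in D2.

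Cytochrome P450 genes of drug metabolism were lower in most of their leading members. Of 22 genes 3 were higher and 13 lower in both strains (31.7% and 27.6% of all genes). The median was -0.16 (0.068 on the deposited scale and -0.30 without the D2 week 1 array). Cyp2b10, the classic target of the receptor CAR, was at 10.94 in B6 and 10.10 in D2 at week 0 and at 9.22 and 8.19 at week 1, a mean change of -1.82 ± 0.25 (adjusted p = 0.0718). Cyp3a16 was at 5.55 and 7.17 at week 0 and at 2.18 and 4.53 at week 1, and Cyp3a44 was lower by 2.64 and 1.12. Cyp2c54 was lower by 1.55 and 0.98. These 4 passed in the fit to the 4 arrays, and the groups overlapped for Cyp3a44, whose D2 week 1 level (8.47) lay above the B6 week 0 level (7.68). Cyp2c55 was far higher in B6 (from 6.06 to 9.87) and at 5.65 and 5.29 in D2. The Cyp2c and Cyp3a genes are close paralogues, and probe sets may share signal among them.

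The remaining genes of the largest shared changes belong to no single process. Aldoc, a brain-type aldolase, was at 7.27 in B6 and 7.43 in D2 at week 0 and at 4.75 and 5.37 at week 1, a mean change of -2.29 ± 0.28 (adjusted p = 0.0718). Atp6v0d2, a subunit of the vacuolar proton pump, was at 7.48 and 7.60 at week 0 and at 5.09 and 5.31 at week 1. In neither gene did the groups overlap. Nlrp12, of the innate immune receptors, was at 9.69 and 7.77 in B6 and at 5.07 and 2.61 in D2, so that the changes were -1.92 and -2.46 while the strains stood apart. Plk2, a polo-like kinase, was higher by 1.51 and 1.40, and the predicted gene Gm6958 by 3.36 and 2.10. The lowest adjusted p, 0.0588, belonged to Hsd17b6 and Fam89a, which were chosen after their values were seen. Hsd17b6, a hydroxysteroid dehydrogenase, was at 10.20 and 10.77 at week 0 and at 11.90 and 11.87 at week 1, and Fam89a at 6.45 and 7.39 and then at 4.65 and 5.80.

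Week 1 was also set against the mean of weeks 4, 12 and 21, a comparison that shares the week 1 arrays with the one above. No gene passed by limma (0%, lowest adjusted p 0.528, 555 genes at an unadjusted p under 0.05). Sqle stayed low on 5 of the 6 later arrays, between 3.80 and 4.76, and was at 9.27 in D2 at week 12. The cholesterol synthesis genes had a summed signal of 18755 on that array and between 3624 and 6438 on the other 5. Cyp8b1 was at 3.63, 8.36 and 2.63 in B6 and at 8.72, 9.81 and 5.78 in D2 at weeks 4, 12 and 21. Cyp7a1 in B6 was at 7.46, 9.73 and 8.15 at those weeks, above its week 1 level of 5.98. Ccnd1 stood between 7.87 and 9.21 on the later arrays, and week 1 in B6 (9.75) was above all of them. Mki67 in B6 was at 5.82 at week 4 and at 4.11 and 3.88 later. The macrophage genes had a summed signal of 33680 in B6 at week 4, above the 10764 of week 1, and of 5581 at week 12.

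**Figure D5:**
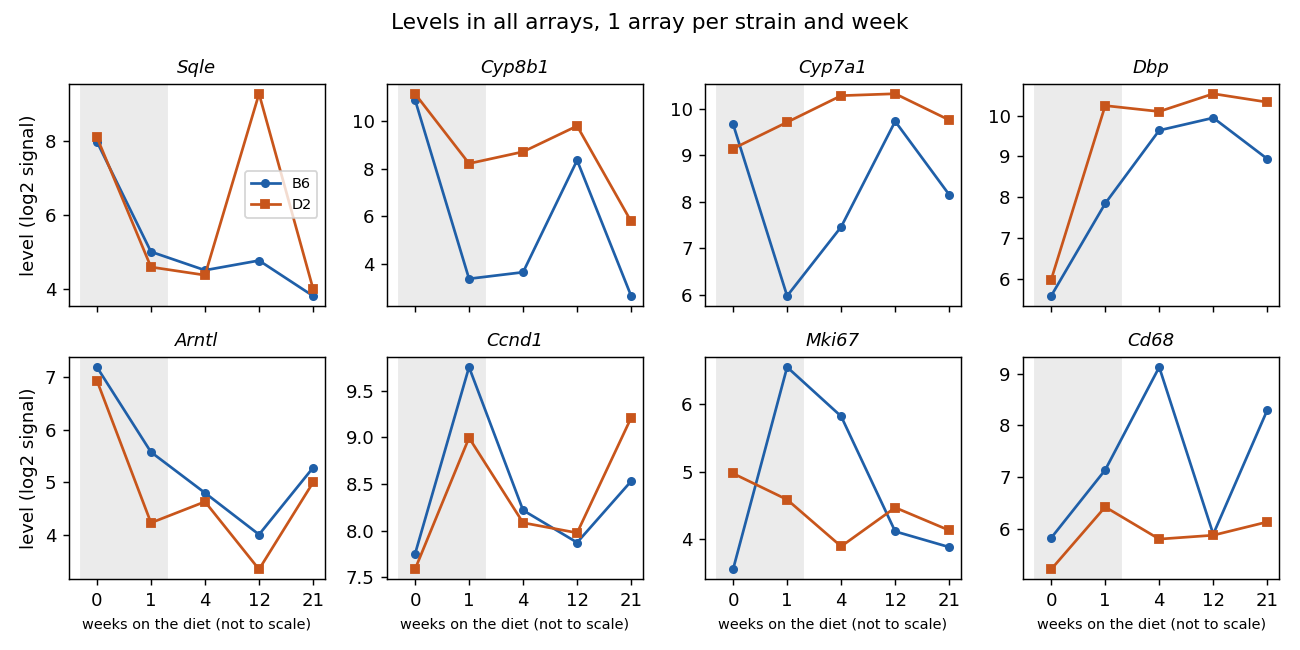
Level (log2 normalised signal) of 8 genes on all 10 arrays against weeks on the diet (0, 1, 4, 12 and 21, not to scale), with blue circles for B6 and orange squares for D2, and grey shading over weeks 0 and 1. Ccnd1 and Mki67 in B6 peak at week 1 (9.75 and 6.55), Cd68 in B6 peaks at week 4 (9.13), and Dbp stays above its week 0 levels of 5.58 and 5.97 on every later array.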

How the data were processed

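Liver RNA of C57BL/6J and DBA/2J females was measured on 10 Affymetrix whole-genome mouse arrays, 1 pool of 5 mice per strain and week. The authors deposited linear intensities, computed in GCOS (version not given in the sources used here) per the submitters' processing notes, and scaling between arrays is not given there. Of 45101 probe sets, 64 controls were left out. The arrays' trimmed means spanned a ratio of 1.59, so the arrays were quantile normalised, which by construction gives every array the same highest value, and log2(signal + 1.05) was taken, the pseudocount being the 10th percentile. Fold changes are on that scale and understate those of low genes. The 34945 probe sets with 1 gene symbol named 18193 genes, 932 had several symbols and 9160 none. Each gene was represented by its brightest probe set, and 11061 genes with a mean above the 50th percentile of probe sets, 3.74, were kept. Another probe set of a gene can differ.

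The change was tested on all 10 arrays with lmFit and eBayes (trend on) of limma 3.58.1 under R 4.3.3, with strain and week as terms and 4 residual degrees of freedom, and p-values were adjusted by Benjamini-Hochberg over all genes kept. The labels carry no replicate numbers: the strain term pairs the arrays by strain. The strain difference of the change came from strain by phase means (4 degrees of freedom), where a lone array is assumed to vary like the later ones. Lists (27, with 562 entries, 52 of them without a named probe set and 457 kept) were described by counts and medians. Of genes in the text, up to 10 in each direction are those with the largest changes shared by both strains and a level of at least 6, others are opposite changes of at least 1 or the 6 largest changes of a list, a fixed set covers lipid, clock, growth and inflammation genes, and further list members, among them the whole of cholesterol synthesis, were named for their role after their values were seen. The members, lists and rules were chosen with earlier results of these data known. Some members of the fixed set and lists were not analysed here. Alternatives changed the scaling, pseudocount, filter, probe set, variance model, design and arrays used. Scripts were tested on simulated data. Plots were made by matplotlib 3.10.9 under Python 3.11.15. The number of arrays limits the precision.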

Additional observations from a re-analysis of the deposited data

Results flagged for a closer look

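Genes that went at least 2-fold in opposite directions in the strains, with a mean level of at least 6 at the higher week, were Saa2, Saa1 and Gstm2. The D2 change minus the B6 change was -3.27 for Saa2, -3.19 for Saa1 and -3.04 for Gstm2, and none passed in the limma test of the strain difference. In Saa2 and Saa1 the D2 week 0 pool was the highest of the 4 arrays, and in Gstm2 the B6 week 1 pool.

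The medians of 10 gene lists had opposite signs in B6 and D2, and these differences were not tested. The D2 median minus the B6 median was 0.67 for PPAR-alpha targets and fatty acid oxidation, 0.45 for gluconeogenesis and insulin-repressed genes, 0.32 for heat shock proteins, 0.25 for bile duct markers and 0.24 for endothelial markers. It was -0.58 for neutrophil and blood cell markers, -0.53 for lymphocyte markers, -0.52 for growth arrest and p53 response, -0.51 for fatty acid synthesis and -0.21 for acute phase genes.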

How the results depend on the processing

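Genes that passed for week 1 against week 0 (0 in the fit described) numbered 207 on the deposited scale, 21 with arrays centred on the median of the genes kept, 5 without probe sets that can cross-hybridise (_x_at and _s_at), 3 with a robust variance model and 105 in the fit to the 4 arrays. They numbered 3 without the B6 week 4 and D2 week 12 arrays, an alternative chosen after seeing the data, and 0 to 17 when 1 array was left out, with 17 without either week 4 array. For week 1 against weeks 4 to 21, leaving out 1 array gave 0 to 2, and 2 without the D2 week 1 array. The strain difference had 0 genes in the settings that could be fitted. Without the strain term, which pairs the arrays as a block, 0 genes passed, and 913 had an unadjusted p under 0.05. When 1 array of a week is left out, the week's other array is fitted exactly by its week term. Leaving out either array of a later week is therefore nearly the same check, which is why their counts match. The cause of the other differences was not tested. On the deposited scale the medians of 11 of 27 lists turned, among them sterol sensing (0.30), bile acid synthesis (0.21), hepatocyte markers (0.11), the unfolded protein response (0.25), cytochrome P450 (0.068) and sex-biased genes (0.18), beside PPAR-alpha, gluconeogenesis, acute phase, heat shock and lymphocyte lists. So did Fdft1 (0.12), Ggps1 (0.26) and the strain difference of Pck1 (-0.037), and the interferon median was 1.17. With 1 array left out, medians ranged from -1.88 to -0.86 for cholesterol synthesis, 0.23 to 1.64 for macrophage, 0.33 to 1.82 for DNA replication, 0.41 to 1.73 for mitosis, 0.24 to 0.73 for clock and 0.29 to 0.99 for interferon genes. The medians of 14 lists turned with some array left out. Among them the range was from -0.26 to 0.15 for sterol sensing (the highest without the B6 week 1 array) and from -0.29 to 0.062 for the unfolded protein response (0.01 without the B6 week 0 array and the highest without the D2 week 1 array). Of genes, Lpl ranged from -0.12 to 1.91, Mmp12 from -0.092 to 3.36 and Slco1a1 from -2.84 to 0.020, each turning without the B6 week 0 array, and Fdft1 from -0.83 to 0.094 and Stard4 from -1.12 to 0.037, turning without the D2 week 1 array. With 1 array left out, 65 of 133 named values turned or moved by over 1.5 times. For an omitted week 0 or week 1 array the strain term stands in, and it rests on the later weeks too. Such values are therefore not the other strain's own change, which for Slco1a1 in D2 was -0.99. Of 113 named genes in the fit to the 4 arrays 51 passed there, against 105 of all 11061 genes kept. Many of the named genes were picked for large or shared changes, which that fit favours, so their count is no independent check. That fit gives each gene the same mean change as the fit described, so no sign could turn. With 1 pool per strain and week, the number of arrays limits these comparisons.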

Other observations

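Genes whose liver level differs between females and males were counted as well. Of 18 such genes 4 were higher and 9 lower in both strains (31.7% and 27.6% of all genes), with a median change of -0.25 (0.18 on the deposited scale, and -0.56 without the B6 week 1 array). Sult3a1, a female-biased sulfotransferase, was at 9.67 and 0.79 in B6 and at 12.23 and 11.25 in D2. Its B6 week 1 level lay far under the filter of 3.74, so the size of that decrease is uncertain, and with 1 array left out the mean change lay between -7.51 and -2.37. The strain difference did not pass (adjusted p = 0.869). Cyp17a1, a steroid hydroxylase, was at 10.11 and 6.51 in B6 and at 9.45 and 8.89 in D2.

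Protein folding genes had small median changes. Of 21 genes of the unfolded protein response 2 were higher and 11 lower in both strains, against 31.7% and 27.6% of all genes. The median was -0.10 (0.25 on the deposited scale), and Atf4, a factor of the amino acid and stress response, was lower by 0.64 and 0.59. Of 13 heat shock genes 4 were higher and 4 lower in both strains (31.7% and 27.6% of all genes). Hspa1b, the inducible Hsp70, was at 11.07 in B6 and 10.05 in D2 at week 0 and at 10.02 and 8.41 at week 1, and passed in the fit to the 4 arrays, while its near-identical copy Hspa1a was at 6.55 and 6.59 in B6 and at 5.90 and 4.22 in D2. Probe sets of these copies can share signal. Il6ra, the interleukin-6 receptor, was lower by 1.90 in B6 and 0.48 in D2. Prom1, a progenitor and bile duct marker, went from 4.76 to 8.50 in B6 and was at 6.58 and 6.41 in D2, and Krt23, a keratin induced in injured liver, was higher by 2.01 and 1.19.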
